A study of Mus musculus with 30 samples.

Results

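White adipose tissue (WAT) of fed mice was compared with liver (LIV) and with skeletal muscle (SM) of fed mice, gene by gene, to describe what separates fat from both of the other tissues when food is present. The series holds 30 microarrays from 3 tissues of fed mice and of mice without food for 24 h, with 5 arrays in each of 6 groups. The comparison used 14 of them: WAT replicates 1 to 5, LIV replicates 1, 2, 3 and 5, and SM replicates 1 to 5. All mice were male C57Bl/6J (C57Bl/6 in the sample labels), 10 to 12 weeks old, kept on normal chow in a day and night cycle, and the fed groups had free access to food until the tissue was taken. The fat was the epididymal depot, which lies beside the epididymis in males, and the muscle, by the methods, came from the thigh. The 3 tissues came from the same set of fed mice, but neither the labels nor the methods say that equal replicate numbers in different tissues are 1 mouse. Fed LIV replicate 4, an array that the methods set aside, was not used. The table gives 28815 probe sets, and 18781 genes could be tested through a probe set that names only that gene. In what follows n is 5 for WAT, 4 for LIV and 5 for SM, levels are log2 values of a probe set as mean ± SD, and differences are WAT minus the other tissue on the same log2 scale with the standard error (SE) of the fit. The fit estimates 1 spread per gene over the 3 tissues, so the SE and p-value against LIV also carry the spread of the SM arrays.

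White fat stores fatty acids as triglyceride in 1 large droplet per adipocyte and releases them by lipolysis, a cascade that hormones turn on and off through G protein-coupled receptors, cyclic AMP and protein kinase A. Adipocytes also release hormones, among them adiponectin, leptin and resistin. The tissue holds blood vessels, fibroblasts, progenitors and macrophages between the adipocytes, and the epididymal pad is covered by mesothelium. Liver makes plasma proteins, bile, glucose and ketone bodies, and muscle contracts and burns much of the fuel that the other organs release.

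The 3 genes that mark the fat arrays were far above both tissues. Adipoq encodes adiponectin, Plin1 encodes perilipin 1, the coat of the adipocyte droplet, and Cidec encodes a protein that fuses droplets. Lep, which encodes leptin, is shown with them as a further adipocyte hormone. The RefSeq promoters of these genes (250 bases before and 50 bases after a transcript's start, build GRCm38.p6) are printed here because they can be set beside the levels that follow. Capitals mark TTGCNNAA, a core that C/EBP factors bind, and CCAAT, on either strand.
Adipoq, chr16:23146286-23146585, plus strand: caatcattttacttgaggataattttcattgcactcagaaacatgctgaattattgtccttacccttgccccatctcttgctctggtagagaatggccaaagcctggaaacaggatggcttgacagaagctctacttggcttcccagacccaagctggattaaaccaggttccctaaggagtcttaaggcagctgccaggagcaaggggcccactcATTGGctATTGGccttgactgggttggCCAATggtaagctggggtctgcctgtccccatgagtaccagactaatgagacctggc
Plin1, chr7:79732727-79733026, minus strand: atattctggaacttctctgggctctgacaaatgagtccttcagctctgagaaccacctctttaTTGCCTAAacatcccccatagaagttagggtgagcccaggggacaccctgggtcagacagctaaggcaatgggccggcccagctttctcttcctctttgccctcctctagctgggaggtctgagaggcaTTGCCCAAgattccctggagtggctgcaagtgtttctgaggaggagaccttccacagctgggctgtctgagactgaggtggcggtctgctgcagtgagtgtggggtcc
Cidec, chr6:113434715-113435014, minus strand: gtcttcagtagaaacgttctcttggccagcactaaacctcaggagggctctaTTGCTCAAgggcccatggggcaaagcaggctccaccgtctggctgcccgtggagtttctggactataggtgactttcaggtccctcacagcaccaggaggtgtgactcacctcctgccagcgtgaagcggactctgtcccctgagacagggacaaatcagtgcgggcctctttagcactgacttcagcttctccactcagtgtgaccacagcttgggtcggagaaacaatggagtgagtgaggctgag
Lep, chr6:29059971-29060270, plus strand: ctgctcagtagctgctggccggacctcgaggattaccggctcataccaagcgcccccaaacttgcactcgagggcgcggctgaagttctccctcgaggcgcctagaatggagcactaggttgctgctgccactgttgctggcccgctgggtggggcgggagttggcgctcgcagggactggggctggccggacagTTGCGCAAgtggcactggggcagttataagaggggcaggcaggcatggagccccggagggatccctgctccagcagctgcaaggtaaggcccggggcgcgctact
TTGCNNAA began 187 and 58 bases before the start of Plin1, 198 bases before that of Cidec and 55 bases before that of Lep. Cidec has another RefSeq start, whose window held neither motif. The Adipoq window held no TTGCNNAA and had CCAAT at 34, 27 and 7 bases before the start. Of the 359 genes at least 4-fold higher in WAT than in both tissues (1.91% of those tested), 271 had a RefSeq promoter, and 13.9% of their 352 promoters held TTGCNNAA, against 9.89% of the 18124 promoters of all tested genes. For CCAAT the shares were 28.4% and 37.5%, for TATAAA 9.94% and 11.6%, and for AGGTCA 12.8% and 14.3%. DR1, which is AGGTCA repeated after 1 base, was in 0 of the 352 windows and in 8 of the 18124. The letters were searched on both strands, an AGGTCA within DR1 counted for both, and a match is only a match of letters.

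Adipoq read 12.35, 12.42, 12.40, 12.24 and 12.38 in WAT 1 to 5, 4.71, 4.26, 4.31 and 4.47 in LIV 1, 2, 3 and 5, and 9.92, 9.00, 9.71, 7.56 and 8.31 in SM 1 to 5. The WAT arrays lay close together and above every other array, whereas the SM arrays spread widely (SD 0.07 in WAT and 0.98 in SM). Adipoq was 7.92 ± 0.35 above LIV, which is 243-fold (adjusted p = 9.06e-12), and 3.46 ± 0.33 above SM, which is 11-fold (adjusted p = 1.26e-07). Plin1 read 12.34, 12.39, 12.39, 12.35 and 12.48 in WAT, 4.83, 5.07, 4.60 and 5.21 in LIV, and 9.94, 9.00, 9.48, 7.36 and 8.05 in SM. Its differences were 7.46 ± 0.38 from LIV and 3.63 ± 0.36 from SM. Cidec read 12.53, 12.47, 12.40, 12.39 and 12.60 in WAT, 5.50, 5.06, 5.11 and 5.48 in LIV, and 9.70, 9.00, 9.39, 7.41 and 7.96 in SM, and its differences were 7.19 ± 0.35 and 3.78 ± 0.33. For all 3 markers the SM arrays stood in the same order, with SM 1 highest and SM 4 lowest, and no SM array reached a WAT array.

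The mean of the 17 measured adipocyte markers, over genes such as these with Fabp4, Lipe, Pnpla2 and Pparg, lay between 11.26 and 11.42 in the WAT arrays and between 5.99 and 6.19 in LIV. The SM arrays had 9.46, 8.93, 9.27, 8.11 and 8.41 in replicates 1 to 5, so the adipocyte markers differed between SM arrays, and the part of this in each difference between WAT and SM was not tested. By the calls defined below, 14 of the 17 adipocyte markers (82.4%, against 16.0% of all genes) were above both tissues, and 2 were above LIV but below SM. Markers of muscle fibres (18 genes) were low in the fat, with means from 4.29 to 4.39, and high in the muscle, with means from 12.39 to 12.48. The hepatocyte list (13 genes) averaged 4.75 to 4.96 in WAT and 12.34 to 12.38 in LIV. SM 3 had the highest hepatocyte mean of its tissue, 5.33, where the other SM arrays ran from 4.43 to 4.91. Genes of epididymis and testis (19 measured) averaged 3.57 to 3.68 in WAT and 3.49 to 3.66 in the other tissues, and pancreas acinar genes (9 measured) averaged 3.71 to 3.83 in WAT and 3.66 to 3.87 elsewhere. The means of both lists were near 3.56, the lower quartile of all fed values. By the same calls, Acr alone of the epididymis and testis genes (5.26%, against 16.0% of all genes) was above both tissues. It read 5.06 to 5.63 in WAT, 3.77 to 4.03 in LIV and 4.15 to 4.75 in SM. These are bulk samples, in which fewer cells of a type and less RNA per cell cannot be told apart. No detection call per probe set was used here, so levels near the lower quartile may be background, and folds against them describe probe set values only. Arrays of a tissue correlated across probe sets at 0.990 to 0.997, WAT with SM at 0.889 to 0.905 and WAT with LIV at 0.847 to 0.860.

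**Figure D1:**
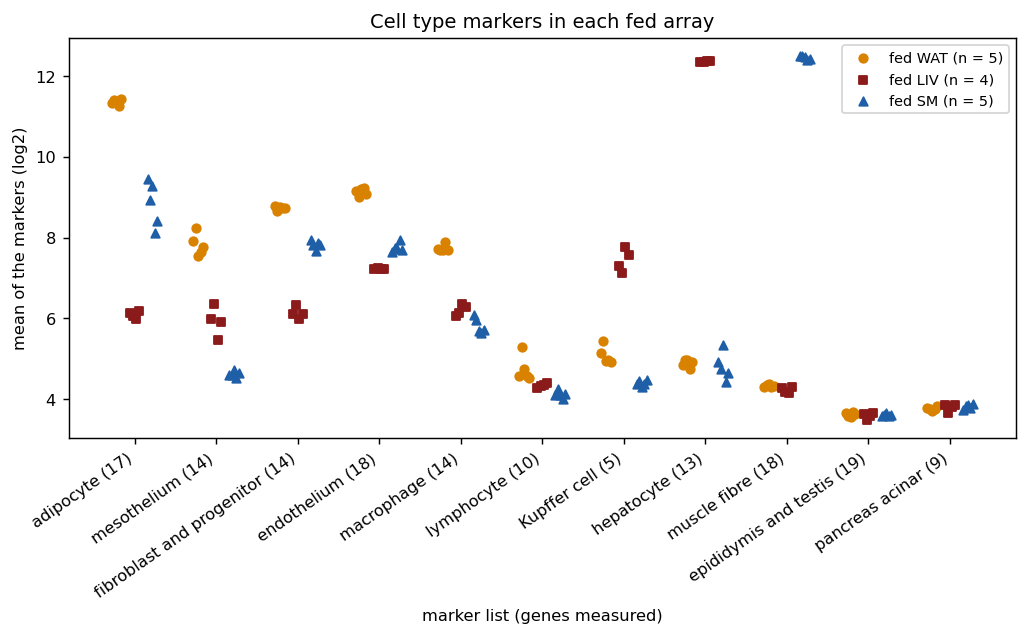
Mean log2 level (y axis) of each cell type marker list (x axis, genes measured in brackets) in every fed array, with 1 point per array for WAT (circles), LIV (squares) and SM (triangles). The adipocyte mean is 11.26 to 11.42 in WAT and spreads from 8.11 to 9.46 in SM, while hepatocyte and muscle fibre markers are low in WAT.

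A gene was called where the difference passed an adjusted p of 0.05 and a minimum of 1.3-fold. WAT was higher than LIV for 4812 genes (25.6% of 18781) and lower for 3508 (18.7%). It was higher than SM for 5069 genes (27.0%) and lower for 3766 (20.1%). The balance against LIV turned when each array was centred on its median, to 4111 higher and 4435 lower, and against SM it became 4626 higher and 4319 lower. Both comparisons use the same WAT arrays. WAT stood above both tissues for 3011 genes (16.0%) and below both for 1197 (6.37%). It lay above LIV and below SM for 714 genes (3.80%), and below LIV and above SM for 868 (4.62%). The genes above both thus made up 71.6% of those called in the same direction in both comparisons, and 61.2% (2620 higher and 1661 lower) with the centred arrays. That centring moved the median of all probe sets to -0.15 against LIV and -0.12 against SM, from -0.02 and -0.04. Among the 3011 higher genes, 2901 (96.3%) had every WAT array above every LIV and SM array, and among the 1197 lower genes 1144 (95.6%) had every WAT array below them. For 27.4% of all genes, called or not, the WAT arrays lay all above or all below every LIV and SM array.

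The smaller of a gene's 2 differences gives how far WAT stood from the nearer tissue. Over the higher genes its median was 0.94, with 1378 genes at 1 or more, 359 at 2 or more, 95 at 3 or more and 30 at 4 or more. Over the lower genes the median was 0.65, with 269, 53, 21 and 12 genes past the same steps, and 3 genes were at 6 or more. The 359 genes at least 4-fold higher than both are 1.91% of those tested, and the 53 at least 4-fold lower are 0.282%. The low side held fewer genes, but its largest distance was 6.80 and that of the high side 4.80.

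**Figure D2:**
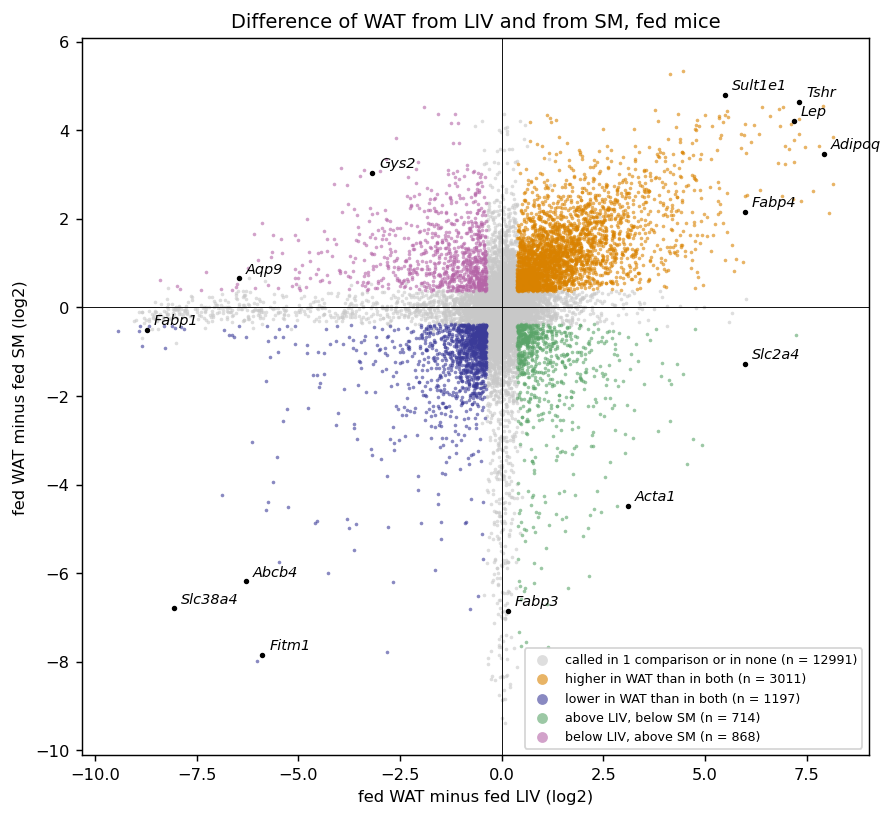
Each point is 1 of 18781 genes, placed by fed WAT minus fed LIV (x axis, log2) and fed WAT minus fed SM (y axis, log2), and coloured by its calls. The upper right holds the 3011 genes above both tissues, the lower left the 1197 below both, and labelled genes include Sult1e1 and Tshr at the upper right and Slc38a4 and Fitm1 at the lower left.

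The gene farthest above both tissues was Sult1e1, which encodes estrogen sulfotransferase, an enzyme that inactivates estrogens. Sult1e1 (chr5:87575968-87591611) read 8.61, 8.59, 9.06, 8.71 and 8.02 in WAT, 3.18, 3.16, 2.97 and 3.16 in LIV, and 4.30, 4.88, 3.72, 3.13 and 2.94 in SM. It was 5.48 ± 0.32 above LIV (adjusted p = 2.65e-10) and 4.80 ± 0.30 above SM (adjusted p = 6.21e-10). Of the 19 measured genes of steroid hormone metabolism and steroid receptors, Sult1e1 and Srd5a3 (10.5%, against 16.0% of all genes) were higher in WAT than in both tissues, and Hsd17b7 and Nr3c2, the mineralocorticoid receptor (10.5%, against 6.37%), were lower. The other probe set of Srd5a3 differed by only -0.02 and -0.32, so its probe sets disagree.

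Receptors of hormones and metabolites were among the 12 genes farthest above both. Tshr, the thyrotropin receptor, read 10.62, 10.78, 10.78, 10.53 and 10.80 in WAT, 3.61, 3.36, 3.23 and 3.37 in LIV, and 7.55, 6.13, 7.0, 4.41 and 5.24 in SM. The SM arrays followed the order of the adipocyte markers. Mc2r, the corticotropin receptor, read 8.49, 8.12, 8.12, 8.49 and 8.51 in WAT against 2.68 to 2.98 in LIV and 3.24 to 5.14 in SM. Hcar1, the lactate receptor that lowers lipolysis, read 9.15 to 9.33 in WAT, 3.41 to 3.84 in LIV and 4.26 to 5.62 in SM. Acvr1c, the activin receptor ALK7, was 6.92 ± 0.40 above LIV and 4.52 ± 0.38 above SM. All 4 receptors had every WAT array above every other array, but the 12 were picked only among genes for which this held.

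Transport and insulin response genes were among the 12 as well. Slc36a2, a transporter of small amino acids, was 6.39 ± 0.20 above LIV and 4.52 ± 0.19 above SM. Trarg1, a protein that travels with the insulin-responsive glucose transporter GLUT4, was 6.59 ± 0.27 and 4.33 ± 0.25 above them. Car5b, a mitochondrial carbonic anhydrase, was 4.99 ± 0.35 and 4.34 ± 0.33 above them. Kcnj15, an inward rectifier potassium channel, read 8.22 to 8.95 in WAT, 4.11 to 4.54 in LIV and 4.09 to 4.48 in SM, so its LIV and SM arrays overlapped. Tmem45b, a membrane protein, was 7.89 ± 0.27 above LIV and 4.54 ± 0.25 above SM, and A530016L24Rik, a RIKEN cDNA gene, 6.81 ± 0.35 and 4.49 ± 0.33.

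Upk1b, a uroplakin of surface epithelia that is also a mesothelium marker, was also among the 12, with another distribution over arrays. It read 9.25, 9.38, 8.30, 8.40 and 8.64 in WAT, 4.45, 5.33, 3.27 and 4.27 in LIV, and 3.27 to 3.66 in SM. WAT 1 and WAT 2 were highest, as they were for the mean of the mesothelium list, and the LIV mean (4.33) was above the SM mean (3.46).

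Genes far below both tissues were mostly shared by liver and muscle. Abcb4, which carries phosphatidylcholine across the membrane of hepatocytes that faces the bile, read 4.23, 4.15, 4.41, 4.39 and 4.10 in WAT, 10.61, 10.52, 10.58 and 10.46 in LIV, and 10.45, 10.38, 10.50, 10.43 and 10.43 in SM. LIV and SM were thus nearly level, and the difference of WAT was -6.29 ± 0.07 from LIV (adjusted p = 1.79e-19) and -6.18 ± 0.06 from SM (adjusted p = 1.75e-19). Hjv, hemojuvelin, a co-receptor that controls iron balance through hepcidin, read 3.86 to 4.30 in WAT, 9.97 to 10.23 in LIV and 12.07 to 12.17 in SM. Fitm1, which helps lipid droplets to form, read 3.78, 3.92, 3.70, 4.09 and 3.63 in WAT, 9.89, 9.57, 9.72 and 9.66 in LIV, and 11.65 to 11.70 in SM. Fitm1 was thus lowest in the tissue that stores most lipid, at -5.89 ± 0.09 from LIV and -7.85 ± 0.08 from SM.

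Slc38a4, a transporter of neutral and basic amino acids, read 3.79, 3.77, 5.60, 4.45 and 3.73 in WAT, 12.33, 12.34, 12.33 and 12.33 in LIV, and 10.84, 11.20, 10.80, 11.29 and 11.20 in SM. It was the gene with the greatest distance from the nearer tissue, -8.06 ± 0.29 from LIV and -6.79 ± 0.28 from SM. Slc38a3, a glutamine transporter, read 4.91, 5.29, 6.03, 6.09 and 5.00 in WAT, 12.28 to 12.41 in LIV and 9.33 to 10.14 in SM. Got1, the cytosolic aspartate aminotransferase, read 6.90 to 7.27 in WAT, 11.57 to 11.75 in LIV and 11.80 to 12.06 in SM, so that WAT was about 24-fold below LIV and 29.3-fold below SM. Serinc2, a membrane protein linked to serine incorporation into lipids, read 4.65 to 5.64 in WAT, 9.27 to 9.37 in LIV and 10.94 to 11.15 in SM.

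The remaining 5 of the 12 lowest were Mreg, Tlcd4, Ociad2, Hook1 and Rnf128. Mreg, melanoregulin, which acts in organelle transport, was -5.48 ± 0.07 from LIV and -5.74 ± 0.07 from SM. Hook1, a linker of cargo to microtubule motors, was -5.26 ± 0.14 and -4.50 ± 0.14, but its other probe set gave only -0.58 and -0.52. Rnf128, a ubiquitin ligase, read 3.74, 3.57, 6.4, 5.25 and 3.87 in WAT, 10.27 to 10.32 in LIV and 8.84 to 9.06 in SM. WAT 3 and WAT 4 were the highest fat arrays for Rnf128, and also for Slc38a4, for Tlcd4 (6.99 and 6.29, against 4.82 to 5.76) and for Cideb (6.24 and 5.35, against 4.19 to 4.56). The hepatocyte mean was 4.96 in WAT 3 and 4.75 in WAT 4, against 4.84, 4.96 and 4.91 in the others. For Rnf128, Slc38a4 and Tlcd4 every WAT array stayed below every LIV and SM array, as the choice of the 12 required.

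**Figure D3:**
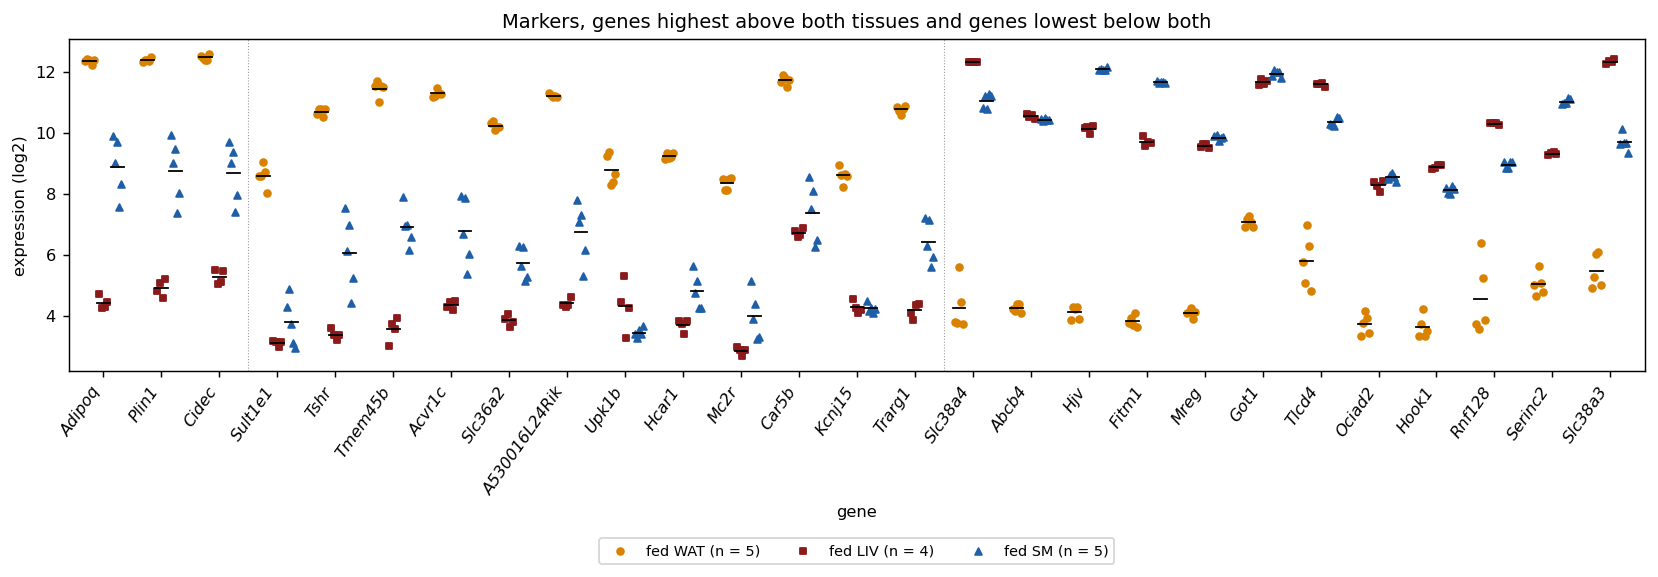
Log2 level (y axis) in each fed array of the markers Adipoq, Plin1 and Cidec, then the 12 genes farthest above both tissues and the 12 farthest below both (x axis), with WAT as circles, LIV as squares, SM as triangles and each group's mean as a bar. The SM arrays spread widely for most of the higher genes, and WAT 3 and WAT 4 are the 2 highest fat arrays for Slc38a4 and Rnf128.

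Of the genes that control lipolysis, 17 of 25 measured members (68.0%, against 16.0% of all genes) were above both tissues and 1 was below (4.00%, against 6.37%). Their median difference was 1.61 from LIV and 1.64 from SM, where that of all genes was 0.002 and -0.022. Among the receptors that restrain lipolysis, besides Hcar1, Hcar2, the receptor for ketone bodies and niacin, had a mean of 6.35 in WAT, 3.48 in LIV and 3.62 in SM, and Ptger3, a prostaglandin E receptor, had 8.38, 4.37 and 5.06. Of the natriuretic peptide receptors, Npr1 was above both tissues, and Npr3, which clears the peptides, had 11.84 in WAT, 5.95 in LIV and 8.23 in SM. Inside the cell, Gnai1, an inhibitory G protein subunit, read 6.21 ± 0.35 above LIV and 4.11 ± 0.33 above SM. Prkar2b, a regulatory subunit of protein kinase A abundant in adipocytes, was 6.84 ± 0.42 and 4.09 ± 0.40 above them. Its paralog Prkar2a was the 1 member below both, at 7.90 in WAT, 9.44 in LIV and 10.56 in SM. Mc5r, another melanocortin receptor, lay between, at 5.40 in WAT, 3.97 in LIV and 8.67 in SM. Adrb3 and Adra2a are among the genes of the list that were not analysed here, because no probe set named them alone.

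Lipid droplet proteins and lipases were higher than in both tissues for 12 of 23 members (52.2%, against 16.0% of all genes). They were lower for 2, Plin5 and Fitm1 (8.70%, against 6.37%), and the medians were 0.79 from LIV and 1.80 from SM. Pnpla3, a lipase and acyltransferase of the droplet, was 6.33 ± 0.25 above LIV and 3.92 ± 0.23 above SM. Within families the members split by tissue. Of the perilipins, Plin1 and Plin4 were highest in WAT, Plin2 was 1.35 ± 0.07 above SM and -0.33 ± 0.08 from LIV, short of the minimum fold, Plin3 was at -0.24 and 0.07 and called in neither, and Plin5, the form of tissues that oxidise fat, was -2.65 ± 0.07 from LIV and -0.90 ± 0.07 from SM. Cidec was joined by Cidea, 1.91 ± 0.14 above LIV and 1.25 ± 0.13 above SM, whereas Cideb was -6.20 ± 0.35 from LIV and 0.67 ± 0.33 from SM (adjusted p = 0.0939).

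The fatty acid binding proteins divided in the same manner. Fabp4, the adipocyte and macrophage form, read 12.02, 12.13, 11.86, 11.91 and 12.22 in WAT, 6.13, 5.93, 6.01 and 6.14 in LIV, and 10.40, 9.96, 10.13, 9.39 and 9.46 in SM. Fabp1, the liver form, read 3.27, 3.27, 3.91, 3.26 and 3.25 in WAT, 12.03 to 12.32 in LIV, and 3.61, 3.85, 4.81, 3.47 and 3.80 in SM. Fabp3, the muscle form, read 3.89 to 4.17 in WAT, 3.47 to 4.07 in LIV and 10.66 to 10.98 in SM. Each of the 3 was thus highest in its own tissue with no overlap, and Fabp4 was also high in SM. The call of Fabp1 below SM (-0.51 ± 0.20, adjusted p = 0.0419) was lost without SM 3, at -0.29, and after quantile normalization. Fabp5 was 1.04 ± 0.21 above LIV and 2.50 ± 0.20 above SM, but it has near-identical copies in the genome and its value is uncertain.

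Channels and carriers for glycerol, fatty acids and glucose showed matching divisions. Aqp7, the glycerol channel of adipocytes, read 11.71, 11.71, 11.84, 11.86 and 11.78 in WAT, 3.54 to 4.02 in LIV and 9.39 to 9.77 in SM. Aqp9, the glycerol channel of hepatocytes, read 4.48 to 4.85 in WAT, 11.11 ± 0.10 in LIV and 3.94 to 4.03 in SM. Of the fatty acid transport proteins, Slc27a1 was 4.06 ± 0.09 above LIV and 1.35 ± 0.08 above SM, Slc27a2 was -8.20 ± 0.23 from LIV, and Slc27a5, which acts in bile acid conjugation, was -8.12 ± 0.06 from LIV. Slc2a4, which encodes GLUT4, read 9.73 to 10.06 in WAT, 3.75 to 4.25 in LIV and 11.11 to 11.24 in SM, so it lay between the tissues, 5.97 ± 0.09 above LIV and -1.27 ± 0.08 from SM. Hk2, hexokinase 2, lay between in the same order, 4.16 ± 0.06 above LIV and -1.72 ± 0.05 from SM, and Hk1 was above both. Slc2a2, the glucose transporter of hepatocytes, was -6.30 ± 0.11 from LIV and 0.28 ± 0.10 from SM, under the minimum fold.

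**Figure D4:**
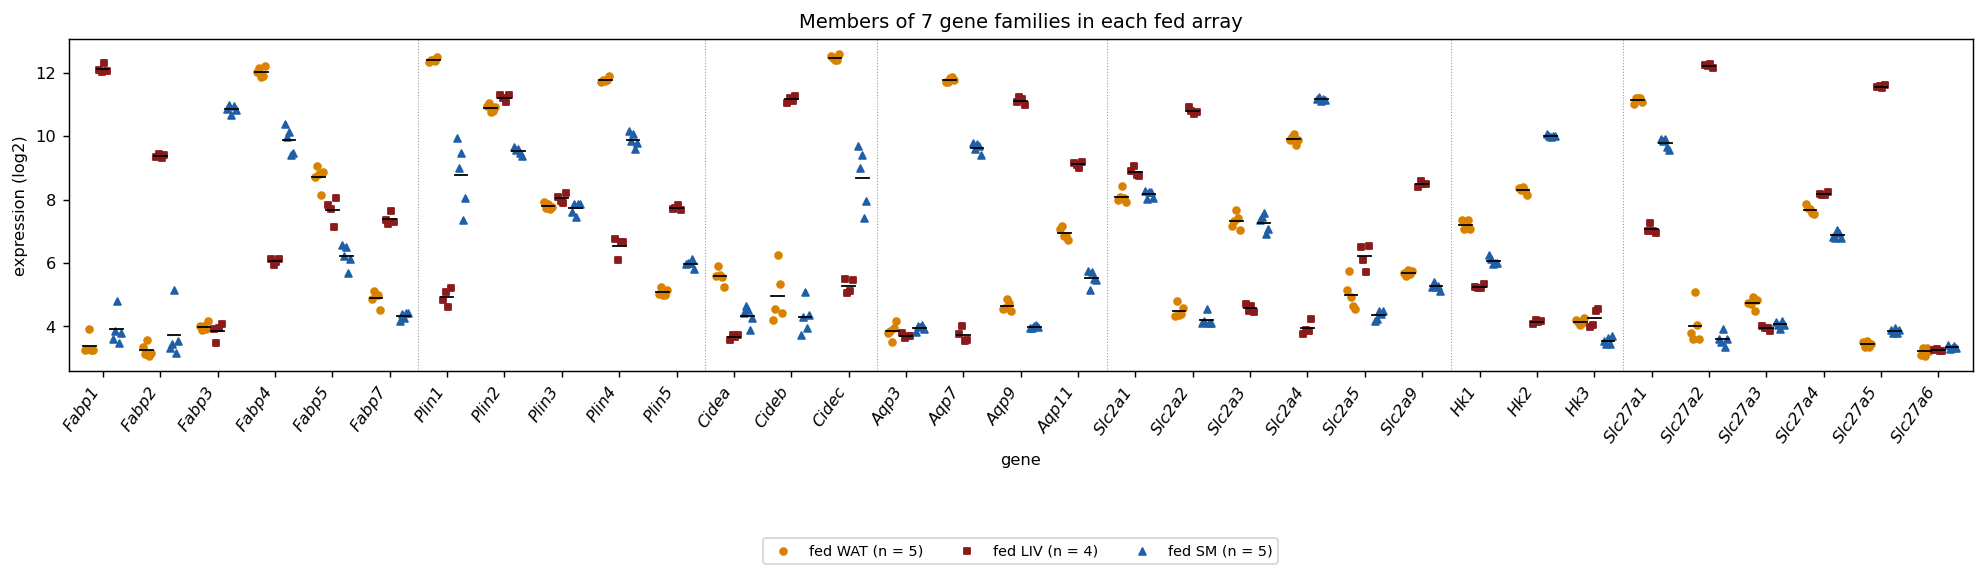
Log2 level (y axis) in each fed array of the measured members of the fatty acid binding protein, perilipin, CIDE, aquaglyceroporin, glucose transporter, hexokinase and fatty acid transport protein families (x axis, families separated by dotted lines), with WAT as circles, LIV as squares, SM as triangles and means as bars. Fabp4, Plin1, Cidec, Aqp7 and Slc27a1 are highest in WAT, Fabp1, Cideb, Aqp9, Slc2a2 and Slc27a5 in LIV, and Fabp3, Slc2a4 and Hk2 in SM.

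Carbonic anhydrases, which interconvert carbon dioxide and bicarbonate, divided as well. Besides Car5b, Car4, the membrane form, read 9.94 to 10.45 in WAT, 3.98 to 4.18 in LIV and 7.11 to 7.89 in SM. Car2 and Car8 were below both tissues, Car8 by -5.37 ± 0.08 and -2.57 ± 0.07. Car3, an adipocyte marker in the list, was bright everywhere, at 12.90 ± 0.11 in WAT, 12.70 ± 0.04 in LIV and 12.62 ± 0.03 in SM, and passed the minimum fold in neither comparison.

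Fatty acid uptake at the vessel wall and membrane was represented by Lpl, lipoprotein lipase, which read 12.43 to 12.75 in WAT, 7.59 to 7.73 in LIV and 10.49 to 11.32 in SM. Its endothelial anchor Gpihbp1 was 1.86 ± 0.10 above LIV and 1.77 ± 0.10 above SM. Its inhibitor Angptl4 was also above both, by 1.40 ± 0.23 and 3.86 ± 0.21. Over the whole list of uptake, binding and activation, 8 of 22 members (36.4%, against 16.0% of all genes) were above both. Below both were 3 (13.6%, against 6.37%), namely Fabp1, Slc27a5 and Acsl4, with 1 below both after quantile normalization. Caveolae, membrane pits that are dense in adipocytes and endothelium, had 6 of 9 members (66.7%, against 16.0% of all genes) above both. Their medians were 4.65 from LIV and 1.70 from SM, with Cavin3 at 6.01 ± 0.13 above LIV and 3.50 ± 0.12 above SM. The muscle forms Cav3 and Cavin4 were below SM.

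Fatty acid synthesis genes were mostly above SM and went both ways against LIV. Of 23 members, 6 (26.1%, against 16.0% of all genes) were above both and 0 below both. Against SM 17 were above and 1 below, where 27.0% and 20.1% of all genes were. Against LIV 7 were above and 6 below, where 25.6% and 18.7% of all genes were. The medians were 0.15 from LIV and 2.50 from SM. Fasn, fatty acid synthase, read 12.59, 12.76, 12.60, 12.28 and 12.65 in WAT, 10.72 to 11.08 in LIV, and 10.44, 9.52, 9.91, 8.15 and 8.88 in SM. Acaca, acetyl-CoA carboxylase 1, was 1.99 ± 0.21 above LIV and 3.42 ± 0.20 above SM. Scd2, a desaturase, was 3.96 ± 0.16 and 2.36 ± 0.15 above them. Fads1, Fads2 and Elovl5, which make polyunsaturated fatty acids, were above SM and below LIV, with Fads2 at 8.75 in WAT, 11.58 in LIV and 6.77 in SM. Elovl3, an elongase, was listed at 3.12 in WAT, 11.71 in LIV and 3.26 in SM. Of 18 genes of triglyceride synthesis, 6 (33.3%, against 16.0% of all genes) were above both, among them Dgat1, the last step, at 2.07 ± 0.13 and 2.65 ± 0.12. Mogat1, which makes diacylglycerol from monoacylglycerol, was 3.84 ± 0.13 and 3.43 ± 0.12 above LIV and SM.

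Of 22 genes of fatty acid oxidation and ketogenesis, 0 were above both and 5 (22.7%, against 6.37% of all genes) below both, namely Slc25a20, Hadha, Acaa2, Etfdh and Bdh1. Against LIV 14 were lower (18.7% of all genes were) and 1 higher (25.6%), with a median of -0.51. Against SM 7 were lower (20.1%) and 7 higher (27.0%), with a median of -0.08. Bdh1, which interconverts ketone bodies, was -6.13 ± 0.18 from LIV and -3.05 ± 0.17 from SM. Of 18 genes of the tricarboxylic acid cycle, 16 were below SM (20.1% of all genes were), 6 below LIV (18.7%) and 6 above LIV (25.6%). The medians were 0.01 from LIV and -0.84 from SM. The 6 below both (33.3%, against 6.37% of all genes) were Suclg1, Suclg2, Sucla2, Sdhb, Sdhd and Fh1, subunits or enzymes of the steps from succinyl-CoA to malate. Sdhd was at -1.04 ± 0.06 from LIV and -1.57 ± 0.06 from SM. Those above LIV were Cs, Idh3a, Idh3g, Ogdh, Mdh2 and Dlat, with Cs, citrate synthase, at 11.56 in WAT, 10.35 in LIV and 11.91 in SM. Breakdown of branched-chain amino acids was above SM for 16 of 23 genes (27.0% of all genes were). It was above both for 4 (17.4%), a share near that of all genes, with 8 above both after quantile normalization. Bcat2, the mitochondrial aminotransferase of the first step, was 3.12 ± 0.09 above LIV and 1.59 ± 0.08 above SM, and Ppm1k, the phosphatase that activates the pathway, was below both.

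Glycolysis, gluconeogenesis and glycogen genes were mixed. Of 28 glucose transport and glycolysis genes, 5 (17.9%) were above both, a share near the 16.0% of all genes. They included Pfkp, the platelet form of phosphofructokinase, at 3.37 ± 0.08 and 2.30 ± 0.08. Another 6 were above LIV and below SM, where 3.80% of all genes were. Pgk1 was the 1 member called below both (3.57%, against 6.37% of all genes), and its value is uncertain because it has near-identical copies. Among 18 genes of gluconeogenesis and glycogen, Pygb, the brain form of glycogen phosphorylase, read 11.36 to 11.55 in WAT, 6.56 to 6.88 in LIV and 6.65 to 8.53 in SM. Gys2, the liver glycogen synthase, lay between, -3.20 ± 0.24 from LIV and 3.04 ± 0.23 above SM. Ppp1r3c, which targets a phosphatase to glycogen, was -2.05 ± 0.14 and -4.12 ± 0.13.

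**Figure D5:**
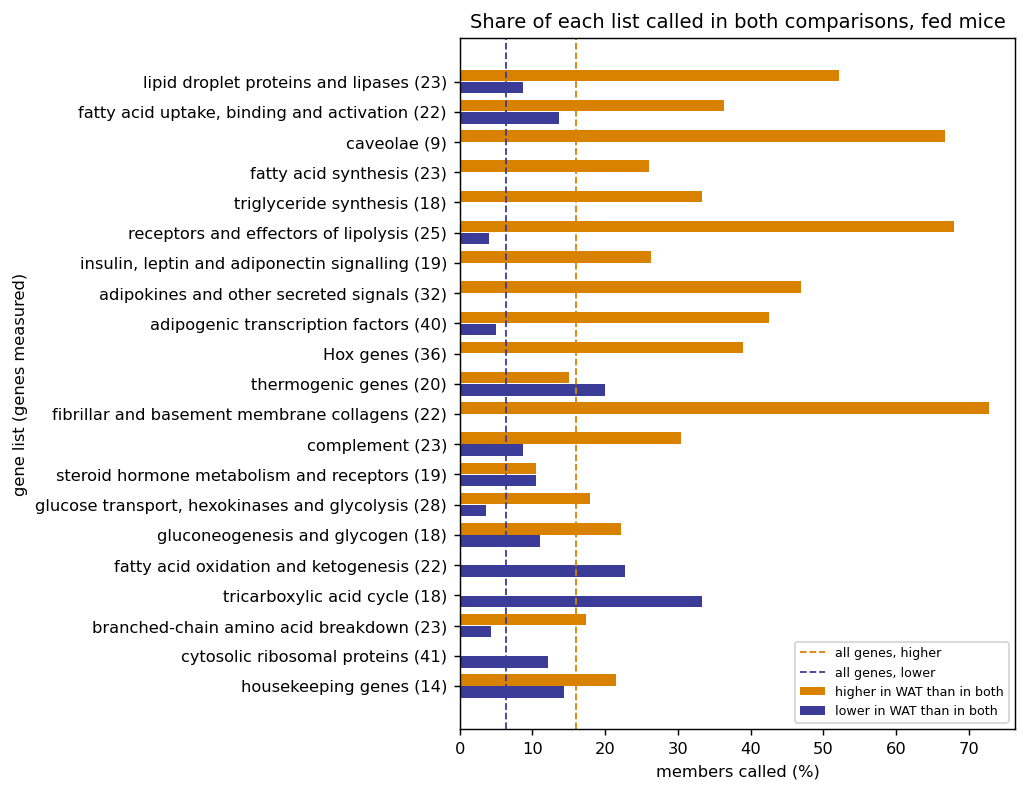
Percent of the measured members of each gene list (y axis, number measured in brackets) called above both tissues (orange bars) or below both (blue bars), with dashed lines at the shares of all genes, 16.0% and 6.37%. Collagens (72.7%), lipolysis control (68.0%) and caveolae (66.7%) lie far right of the orange line, and the tricarboxylic acid cycle (33.3%) far right of the blue line.

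Secreted signals above both tissues numbered 15 of 32 (46.9%, against 16.0% of all genes) and 0 were below both (6.37% of all genes were). The medians were 0.91 from LIV and 1.17 from SM. Lep read 10.87, 10.79, 10.92, 11.01 and 11.14 in WAT, 3.60, 3.79, 3.97 and 3.70 in LIV, and 8.23, 7.12, 7.79, 4.85 and 5.72 in SM. It was 7.18 ± 0.50 above LIV and 4.20 ± 0.47 above SM, with the widest SM spread of the hormones named here (SD 1.42). Retn, resistin, was 8.14 ± 0.43 and 2.78 ± 0.41 above them. Nrg4, a growth factor released by fat, read 8.78 to 8.97 in WAT, 5.40 to 5.72 in LIV and 4.54 to 5.87 in SM. Fgf10, a growth factor of adipogenesis, was 4.43 ± 0.19 above LIV and 3.51 ± 0.18 above SM. Rbp4, the retinol carrier, was near its LIV level, at 12.05 in WAT and 12.70 in LIV, and stood at 7.95 in SM. Il6, Tnf and Fgf21 were at 2.74, 4.07 and 4.03 in WAT and called in neither comparison.

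Of 19 genes of insulin, leptin and adiponectin signalling, 5 (26.3%, against 16.0% of all genes) were above both and 0 below. Irs3, an insulin receptor substrate of rodents, read 9.32 to 9.83 in WAT, 4.61 to 4.97 in LIV and 5.19 to 5.81 in SM, a difference of 4.77 ± 0.13 and 4.12 ± 0.12. Irs2 was above both by 0.58 ± 0.11 and 0.62 ± 0.10. Pik3r1, a regulatory subunit of the lipid kinase below the insulin receptor, was above both by 1.56 ± 0.10 and 1.75 ± 0.09.

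Transcription factors of fat formation were above both tissues for 17 of 40 (42.5%, against 16.0% of all genes). Cebpb and Stat5b were below both (5.00%, against 6.37%), and the medians were 0.79 from LIV and 0.76 from SM. Pparg, the nuclear receptor that drives adipocyte formation, read 11.18, 11.41, 11.34, 11.16 and 11.19 in WAT, 8.44 to 8.66 in LIV and 6.89 to 8.45 in SM, and was 2.70 ± 0.26 and 3.56 ± 0.24 higher. Cebpa, its partner, was high in liver too: WAT was 0.62 ± 0.28 above LIV (adjusted p = 0.0745), not called, and 3.64 ± 0.26 above SM. The WAT arrays of Cebpa (10.46 to 10.72) nevertheless all lay above its LIV arrays (9.89 to 10.07). Its SD was 0.11 in WAT, 0.08 in LIV and 0.79 in SM, and the SE against LIV carries all of these. Ebf1, a factor of early adipocytes, was 7.15 ± 0.09 above LIV and 2.44 ± 0.08 above SM. Ebf2 was 5.44 ± 0.10 and 1.91 ± 0.10 above them by its brightest probe set, and 0.09 and 0.22 by another, so its probe sets disagree. Cebpb averaged 6.46 in WAT, 7.55 in LIV and 7.13 in SM.

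Hox genes encode homeodomain factors that mark position along the body. Of 36 measured, 14 (38.9%, against 16.0% of all genes) were above both tissues. Above LIV were 21 (25.6% of all genes were), below SM 8 (20.1%) and below LIV 0, with medians of 0.76 from LIV and 0.07 from SM. Hoxc8 read 11.61, 11.64, 11.63, 11.68 and 11.60 in WAT, 4.61, 4.60, 4.65 and 4.48 in LIV, and 8.57, 8.49, 7.88, 7.65 and 7.64 in SM, and was 7.05 ± 0.16 and 3.59 ± 0.15 higher. The next genes of the same cluster turned over: Hoxc9 averaged 5.71 in WAT and 7.05 in SM, and Hoxc10 read 3.42 to 3.76 in WAT, 3.42 to 3.89 in LIV and 8.22 to 8.65 in SM. The 8 genes below SM all had group numbers of 8 or above (Hoxa9, Hoxa10, Hoxc9, Hoxc10, Hoxc11, Hoxd8, Hoxd9 and Hoxd10), and of the 14 above both only Hoxc8 did. Tbx15, a T-box factor, read 3.39 to 3.53 in WAT, 3.35 to 3.50 in LIV and 10.89 to 11.11 in SM, so it was at the lower quartile in this fat depot and -7.53 ± 0.05 from SM. Tbx15, Hoxc10, Retn and Cebpa were chosen after their values were seen, as were the other list members given here only by their group means.

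Of 20 thermogenic genes, 3 were above both tissues and 4 (20.0%) below both, with medians of -0.01 from LIV and -0.35 from SM. Ucp1, the uncoupling protein of brown fat, averaged 3.06 in WAT, 3.06 in LIV and 3.07 in SM, below the lower quartile of all values. Ppargc1a, a coactivator of mitochondrial genes, was -1.12 ± 0.11 from LIV and -2.47 ± 0.10 from SM. Cox8b, a muscle and brown fat subunit of cytochrome oxidase, was in between, 4.54 ± 0.11 above LIV and -3.54 ± 0.10 from SM.

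Most marker lists of the other cells of the fat pad were higher as well, where 16.0% of all genes were above both tissues. For endothelium, 17 of 18 (94.4%) were above both, and the list averaged 9.01 to 9.23 in WAT, 7.21 to 7.25 in LIV and 7.64 to 7.94 in SM. Cldn5, a tight junction protein of vessels, was 3.23 ± 0.09 above LIV and 2.34 ± 0.08 above SM. For macrophages, 13 of 14 (92.9%) were above both, with means of 7.69 to 7.90 in WAT, 6.07 to 6.37 in LIV and 5.65 to 6.09 in SM. Lyz2, lysozyme, was 2.26 ± 0.14 and 2.36 ± 0.14 higher. The markers of Kupffer cells, the macrophages of liver, were lower than in LIV for 4 of 5 (18.7% of all genes were), with Clec4f at -3.80 ± 0.08. Fibroblast and progenitor markers were above both for 10 of 14 (71.4%), and mesothelium markers for 12 of 14 (85.7%). The mesothelium mean was 7.54 to 8.25 in WAT, highest in WAT 2, and 4.52 to 4.73 in SM. Upk3b, a mesothelial uroplakin, was 4.13 ± 0.29 above LIV and 5.28 ± 0.28 above SM. Of 10 lymphocyte markers, 3 were above both, and their mean spread from 4.52 to 5.30 in WAT.

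Matrix genes stood high with the fibroblast markers. Of 22 collagens, 16 (72.7%, against 16.0% of all genes) were above both tissues and 0 below both (6.37% of all genes were). The medians were 1.63 from LIV and 0.87 from SM. Col3a1 read 9.82, 9.68, 9.62, 9.55 and 9.81 in WAT, 6.44, 6.59, 6.14 and 6.32 in LIV, and 8.71, 8.37, 8.54, 8.0 and 8.31 in SM. Col15a1, a basement membrane collagen, was 4.18 ± 0.10 and 2.23 ± 0.10 higher. Of 23 complement genes, 7 (30.4%, against 16.0% of all genes) were above both, among them C1qa, C1qb, C1qc and the receptors C3ar1 and C5ar1. Below LIV were 14 (18.7% of all genes were). C5ar1 was 3.11 ± 0.12 and 2.28 ± 0.11 higher. The part that the share of each cell type has in these counts was not tested.

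Genes that lay between the tissues included muscle genes found in fat. Acta1, skeletal actin, read 8.28, 8.64, 7.45, 8.74 and 8.52 in WAT, 5.43, 4.98, 5.39 and 5.13 in LIV, and 12.78 to 12.85 in SM. Myl1, a myosin light chain, was 4.92 ± 0.14 above LIV and -3.11 ± 0.13 from SM, and Fhl3, a LIM domain protein, 3.04 ± 0.11 and -3.29 ± 0.10. Of the 18 muscle fibre markers, 2 were above LIV (25.6% of all genes were) and 1 was below LIV (18.7%). The other 15, such as Ckm (4.76 in WAT and 4.78 in LIV) and Myh4 (3.53 and 3.54), were not called between WAT and LIV. The source of the muscle gene signal in WAT was not tested. Those below LIV and above SM were led by Mtarc1, a mitochondrial reductase, at -3.96 ± 0.27 and 3.16 ± 0.26, with Gys2, Pcbd1 and Acsm5.

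Genes of serine and asparagine synthesis were picked after their values were seen. Phgdh, the first enzyme of serine synthesis, read 9.92, 9.93, 9.64, 9.97 and 9.88 in WAT, 5.28, 4.90, 4.97 and 5.11 in LIV, and 6.00, 5.41, 6.13, 5.11 and 5.50 in SM. Phgdh has 3 probe sets, and only the brightest is given here. Psat1, the second enzyme, was 5.44 ± 0.22 above LIV and 4.19 ± 0.20 above SM, with every WAT array at 9.42 or more. Psph, the last enzyme, was not above either tissue, at 0.03 ± 0.10 from LIV and -0.69 ± 0.09 from SM. Shmt1, which passes the carbon of serine to folate in the cytosol, was lower than both, at -4.37 ± 0.11 and -1.51 ± 0.10. Asns, asparagine synthetase, was 3.61 ± 0.29 and 3.63 ± 0.28 higher, and Slc1a5, a transporter of neutral amino acids, 6.97 ± 0.28 and 3.65 ± 0.26. These genes are no list and carry no share. The imprinted genes Nnat, Mest and Plagl1, also picked after their values were seen, were above LIV by 7.80 ± 0.43, 4.09 ± 0.22 and 4.76 ± 0.17, and above SM by 3.64 ± 0.40, 3.79 ± 0.21 and 4.04 ± 0.16.

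MicroRNA genes had 303 measured loci, of which 29 (9.57%) were above both tissues and 7 (2.31%) below both, both shares under those of all genes. The probe sets read RNA of the locus, and their median of the highest fed group mean was only 3.81. The 3 loci at least 4-fold above both, picked after their values were seen, each lay within the span of a gene that was itself above both tissues. The 5p mature sequence of each from RefSeq (GRCm38.p6) is given with the seed, bases 2 to 8, in capitals. The seed sets which messages a microRNA pairs with. Each locus also has a 3p mature sequence with a seed of its own, which is not printed here.
mmu-miR-708-5p, chr7:96249450-96249472, plus strand: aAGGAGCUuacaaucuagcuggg
mmu-miR-218-5p, chr11:35616840-35616860, plus strand: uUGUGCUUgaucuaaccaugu
mmu-miR-26a-5p, chr9:119031811-119031832, plus strand: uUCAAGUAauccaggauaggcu
The 3 printed seeds differ. Mir708 read 6.77 to 7.09 in WAT, 3.86 to 4.28 in LIV and 3.86 to 4.61 in SM, and its host Tenm4, a teneurin, was 5.98 ± 0.30 above LIV and 4.14 ± 0.28 above SM. Mir218-2 read 6.10 to 6.89 in WAT, 3.69 to 3.75 in LIV and 3.74 to 4.48 in SM, and its host Slit3, a guidance ligand, was 6.34 ± 0.09 and 2.66 ± 0.08 higher. Mir26a-1 read 5.43 to 5.94 in WAT, 3.18 to 3.64 in LIV and 3.18 to 3.55 in SM, and its host Ctdspl, a phosphatase, was 3.09 ± 0.12 and 3.16 ± 0.12 higher. Mature microRNA was not measured apart from the RNA of the locus.

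Of 41 cytosolic ribosomal protein genes, 0 were above both (16.0% of all genes were) and 5 (12.2%, against 6.37%) below both. The count below both was 2 after quantile normalization and 9 with arrays centred on their medians. Among the 5 was Rps25, at -0.82 ± 0.08 from LIV and -0.80 ± 0.08 from SM. Of 14 housekeeping genes, Actb, Gusb and Ywhaz (21.4%, against 16.0% of all genes) were above both (1 of them with arrays centred on their medians), and Pgk1 and Tfrc, the transferrin receptor, below both (14.3%, against 6.37%), while Gapdh averaged 12.92 in WAT, 12.93 in LIV and 13.16 in SM and was called in neither. The ribosomal protein genes have many near-identical copies, so their values are uncertain.

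The same comparison in the mice without food for 24 h gave 3084 genes above both tissues and 1410 below both. Of the fed genes above both, 2498 (83.0%) were above both in those mice too, which is 81.0% of the latter, and of the fed genes below both 918 (76.7%) were shared, which is 65.1% of the latter. Of the 359 genes at least 4-fold higher, 261 (72.7%) were so in both states, and of the 53 at least 4-fold lower 39 (73.6%). Whether a gene's distance from the other tissues differed between fed and fasted mice was not tested here.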

How the data were processed

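Affymetrix Mouse Gene 1.1 ST arrays had been hybridised with labelled target made from 150 ng of total RNA. The study's methods name the Ambion WT Expression and Affymetrix WT Terminal Labeling kits for this. The RNA was extracted with Trizol per the labels, while the study's methods name RNeasy columns for tissue RNA. The authors normalised them by RMA in Partek and deposited 1 table of log2 values, with 28815 probe sets and 30 arrays, in which each value is a probe set's normalised log2 intensity. Every column was matched to a sample by its label (0 columns without a sample), no 2 arrays were identical, and groups came from the labels. Probe sets were named from the platform annotation and RefSeq: 21153 named 1 gene, 1867 several and 5795 none, and a gene was represented by the probe set with the highest mean over the fed groups among those naming it alone.

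Group means of the 14 fed arrays were fitted with limma 3.58.1 (R 4.3.3), with moderated variances and Benjamini-Hochberg adjustment over all 28815 probe sets for each comparison, and the threshold for a call was 0.05 for the adjusted p together with a minimum of 1.3-fold. Fits were tested on simulated data. Python 3.11.15 with pandas 2.3.3 and numpy 2.4.6 made the counts, and matplotlib 3.10.9 the plots. The fasted comparison left out fasted SM replicate 5, which correlated least with its group (mean 0.980), whereas the study's text names replicate 1 as left out. With replicate 1 left out instead, 2946 genes were above both tissues and 1363 below both in fasted mice.

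Named genes were the 12 farthest above and the 12 farthest below both tissues by the smaller difference, among genes whose WAT arrays overlapped neither tissue. Added to these were 4 of each in-between class, up to 4 per list and all members of the gene families, 169 in all. Further genes are said to be chosen after their values were seen. The members and the 41 gene lists (634 of 709 entries matched) were chosen with earlier results of these data known. The replicates are labelled as biological, and the tissues share mice, but no source says which arrays come from 1 mouse, so p-values measure the spread between these samples. The number of arrays limits the precision. Over 13 pairs of equal replicate number, deviations from the group means correlated at -0.057 to 0.161. Such correlations between different tissues cannot show whether a pair shares a mouse, so the pairing stayed unknown and was left out of the main fit. Alternatives changed the arrays fitted, the scaling, the variance model, the filter on dim probe sets, the choice of probe set, the thresholds and the replicate block.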

Additional observations from a re-analysis of the deposited data

Results flagged for a closer look

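Of 600 groups of 4 or 5 fed arrays looked at (the 169 named genes, 19 genes chosen after their values were seen and the means of 12 marker lists, each in 3 tissues), 20 (3.33%) had 1 array set apart from the others by a Dixon test at the 95% level, a rate at which chance sets apart about 1 group in 20. Among the fat arrays, WAT 3 was highest for Fabp1 (3.91, the others 3.25 to 3.27) and for Ppp1r3c (7.64, the others 6.67 to 6.95), and lowest for Lyz2 (10.69, the others 11.02 to 11.13) and for Phgdh (9.64, the others 9.88 to 9.97). WAT 2 was highest for Ptprc (7.59, the others 7.34 to 7.39), and WAT 4 for the mean of the macrophage markers (7.90, the others 7.69 to 7.71).

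In SM, replicate 3 was highest for Fabp1 (4.81), Fabp2 (5.15) and Slc2a2 (4.56), genes of liver or gut, and it also had the highest mean of the hepatocyte markers. SM 4 was lowest for Kcnk3 (4.88), SM 2 for Tfrc (9.27) and SM 5 for Slc25a20 (9.21).

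In LIV, replicate 3 was lowest for Kcnk3 (4.91), Mtarc1 (11.83) and Sult1e1 (2.97) and highest for Tfrc (7.32, the others 6.52 to 6.64). LIV 2 was lowest for Bdh1 (9.76) and Plin4 (6.09), LIV 5 highest for Col4a2 (6.63) and LIV 1 highest for Sdhd (10.35). WAT 3 and LIV 3 had 4 such values each and SM 3 had 3, and no explanation was tested.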

How the results depend on the processing

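Of 338 differences of 169 genes under 28 refits, 325 (96.2%) kept their side of the threshold in all. Of 9450 values, no call was reversed, 15 values of 5 uncalled differences changed sign (Cela1, Slc27a6 and Slc4a1 against LIV, Plin3 and Slc2a3 against SM), 26 values lost and 12 gained a call (Cideb, Plin2, Car3 and Slc27a2 gained one; Fabp1, Cd3e, Slc2a9, Slc27a5, Tfrc, Ywhaz, Rpl4 and Rpl6 lost one). Without a minimum fold, 2189 genes were below both tissues and 2560 between them. With a minimum of 2-fold in place of 1.3-fold, 4190 genes were called against LIV, 4326 against SM, 1378 above both, 269 below both and 455 between, and with 8-fold in place of 4-fold 95 were above both and 21 below. Leaving out each array in turn gave 8284 to 8396 genes against LIV, 8797 to 8902 against SM, 2947 to 3048 above both, 1153 to 1259 below both, 1567 to 1602 between, 348 to 369 at least 4-fold above both and 51 to 55 at least 4-fold below. All other alternatives were within 1.5 times, with 7575 to 11251 genes against LIV, 8170 to 11915 against SM, 2620 to 3912 above both and 1147 to 1661 below both. The replicate block left 3017 genes above both and 1197 below both, and its pairing moved no count past that limit. No median of a list changed sign past the minimum fold under quantile normalization, centring on array medians or cyclic loess. Levels near the lower quartile of 3.56 limit what can be said of genes low in a tissue.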
